A study of Homo sapiens with 8 samples.

Results

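The genes described here are 10 genes of the YAP and TEAD system, taken by symbol from a table of 23459 genes: CTGF, CYR61, ANKRD1, AMOTL2, AJUBA, LATS2, YAP1, WWTR1, TEAD1 and TEAD4. CTGF and CYR61 are the older symbols of CCN2 and CCN1. The genes were taken by name, with no cut on a measured value, but earlier results of these data were known at the choice. All 10 genes had enough reads to be among the 13925 genes tested. The RNA came from Hct116, an established human colorectal carcinoma cell line grown as an adherent monolayer. In all, 4 libraries came from cells given lenalidomide at 30 µM for 16 h, and 4 from cells given the solvent DMSO alone. Lenalidomide is an immunomodulatory drug that binds cereblon, the substrate receptor of a ubiquitin ligase, and redirects the ligase to other proteins. The study measured protein turnover in Hct116 with the same drug, and the RNA data served to tell changes in transcript level from changes in protein stability. All cells were of 1 line, and the labels name no other genetic change, so each value describes that line only.

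YAP (encoded by YAP1) and its paralogue TAZ (encoded by WWTR1) are transcriptional coactivators that do not bind DNA themselves and act on promoters and enhancers through the TEAD factors. The Hippo kinases, of which LATS2 is a terminal member, phosphorylate YAP and TAZ and hold them in the cytoplasm, and this happens as epithelial cells grow dense, detach or lose tension on the cytoskeleton. The pathway is therefore read from the transcripts of YAP and TEAD target genes, and density of the culture is a known source of variation in them. The labels describe passage of the cells near confluence, whereas the study's methods describe treatment at a lower density together with a change into medium with isotope-labelled amino acids. No density was given for any single library, and the part of density in the values below was not tested.

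The 8 libraries held 28218471 to 37473413 reads counted in genes, the 4 largest being those of DMSO. Levels are given as CPM (counts scaled to library size) after scaling by the trimmed mean of M-values (TMM), with factors from 0.971 to 1.02. DMSO replicate 3 stood apart for several of the genes below, and values that rest on it are given with and without it. Of 8 listed markers of colon epithelium 6 were tested, and their summed level was 2294 to 2595 CPM in DMSO and 2220 to 2552 CPM with lenalidomide. Most of it came from KRT19, EPCAM, KRT8 and KRT18, at 845, 589, 473 and 408 CPM in DMSO. CDX2 was at 8.47 CPM in DMSO, and VIL1 and CEACAM5 had only 7 and 3 counts over all libraries. Markers of other cell types were lower: the summed level of 5 fibroblast markers was 2.92 to 3.54 CPM in DMSO and 2.56 to 3.92 CPM with lenalidomide. That of 3 leukocyte markers was 3.77 to 5.11 and 4.47 to 5.64 CPM, and that of 2 endothelial markers at most 0.243 CPM. Most of the fibroblast sum was COL1A1 (mean 2.98 CPM in DMSO), and most of the leukocyte sum CD68 (mean 4.52 CPM in DMSO).

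No change of the YAP and TEAD genes was detected after 16 h of lenalidomide. None of the 10 genes passed an adjusted p of 0.05 (edgeR quasi-likelihood test, Benjamini-Hochberg over all genes tested, adjusted p = 0.999 for each), where 0.0144% of all genes tested passed. At an unadjusted p under 0.05 there were again 0 of 10, against a background of 4.18%, although CYR61 or WWTR1 fell under it in 7 of 13 alternative fits. In 0 of 10 genes did the 4 lenalidomide libraries lie wholly below or wholly above the 4 DMSO libraries, which 0.84% and 1.24% of all genes tested did. The 6 target genes had log2 fold changes (lenalidomide minus DMSO) from -0.36 to -0.038 with a median of -0.11, and 3 of the 4 coactivator and TEAD genes had positive ones, with a median of 0.048, beside a median of 0.0025 over all genes tested. Exact permutation tests of the CPM, 1 for each of the 10 genes, gave p from 0.0857 (CYR61) to 0.886 (YAP1). With DMSO replicate 3 left out, 3 of 6 target genes were negative and their median was -0.00066.

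YAP1, on the plus strand of chromosome 11 (GRCh37, chr11:101981178-102104155), encodes the coactivator itself and was one of the more abundant transcripts of the set. It stood at 200.8, 189, 188 and 203 CPM in DMSO replicates 1 to 4 and at 187, 181, 210.5 and 197 CPM in lenalidomide replicates 1 to 4. The highest and lowest libraries were both lenalidomide libraries, and the DMSO values lay between them. The means were 195 ± 7.92 and 194 ± 12.95 CPM (SD, n = 4 each). This is a log2 fold change of -0.0094, and its 95% confidence interval ran from -0.14 to 0.12.

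WWTR1 (chr3:149235022-149454501, minus strand) encodes TAZ. Its DMSO libraries were very close to each other at 45.6, 46.8, 46.6 and 46.7 CPM, and the lenalidomide libraries spread more widely at 48.5, 45.3, 54.99 and 52.2 CPM. In 3 of 4 lenalidomide libraries WWTR1 was above every DMSO library, while replicate 2 was below every one. The log2 fold change was 0.11 (SE 0.0617), with an interval of -0.018 to 0.25, and the two-sided exact permutation test over the 70 ways to divide 8 libraries into groups of 4, whose smallest possible p is 0.0286, gave p = 0.143. Per transcript length, YAP1 exceeded WWTR1 by a ratio of 4.19, 3.84, 3.83 and 4.14 in the DMSO libraries and 3.68, 3.79, 3.64 and 3.58 in the lenalidomide libraries. The ratios did not overlap between the groups (4.0 ± 0.192 and 3.67 ± 0.0883, SD, n = 4 each, exact permutation p = 0.0286). The ratio was 1 of 5 such ratios computed, and the p adjusted over them by Benjamini-Hochberg was 0.143 (exact permutation test). With 4 libraries a group, that is the lowest adjusted value that 1 separated ratio among 5 can reach, so the adjusted test could not have passed it. In the GENCODE annotation, antisense transcripts overlap 756 exonic bases of WWTR1 (WWTR1-AS1) and 639 of YAP1. Whether the counted exons, of another annotation, hold these bases was not checked. No strand setting is named for the counting, so where they do, antisense reads cannot be told apart from those of the coactivators.

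The TEAD factors provide the DNA contact of YAP and TAZ. TEAD1 (chr11:12695968-12966284, plus strand) was at 217, 199.9, 216 and 217 CPM in the DMSO libraries and 212, 195, 229 and 238 CPM in the lenalidomide libraries. Replicate 2 was the lowest library in both groups, and lenalidomide replicates 3 and 4 lay above all DMSO libraries, but the groups overlapped (log2 fold change 0.040, SE 0.0647). TEAD4 (chr12:3068496-3149842, plus strand) was at 13.8, 14.6, 13.4 and 12.8 CPM in DMSO and 13.5, 12.8, 16.0 and 14.6 CPM with lenalidomide, also with overlap (log2 fold change 0.055, SE 0.0815). Per length, TEAD1 was the most abundant of the 4 family members, at 19.9 ± 0.782 RPKM (CPM divided by the exonic length in kilobases) in DMSO, followed by TEAD2 at 7.55 ± 0.372, TEAD4 at 6.32 ± 0.356 and TEAD3 at 3.76 ± 0.143 RPKM (SD, n = 4). With lenalidomide the order was the same, at 20.5, 7.64, 6.57 and 4.06 RPKM. The ratio of TEAD1 to TEAD4 was 3.16 ± 0.283 in DMSO and 3.12 ± 0.166 with lenalidomide (SD, n = 4 each, exact permutation p = 0.857).

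CTGF, CYR61 and ANKRD1 are the targets by which YAP activity is most often read. CTGF and CYR61 encode secreted matricellular proteins of the CCN family that bind integrins, and ANKRD1 encodes an ankyrin-repeat protein best known from stressed muscle. The core of the TEAD binding site is GGAATG, and it was searched on both strands in RefSeq promoters of 250 bases before to 50 bases after the start (GRCh38.p14). The search found 7 of the 10 genes, with 10 promoters, and it did not cover CYR61, TEAD1 and TEAD4. At least 1 GGAATG stood in 6 of these 10 promoters, 1 for each gene but WWTR1, and in 14.03% of the 35116 promoters of the table. CTGF had 3 copies at positions -169, -104 and -95 from the start, a number that 0.128% of all promoters reach, and ANKRD1 had 2 at -220 and -128, which 1.37% reach or exceed. The 250 bases before the start of both genes are shown because they hold these repeated cores, with each GGAATG in capitals and the strand of the gene read 5′ to 3′.
CTGF chr6:131951373-131951622, minus strand: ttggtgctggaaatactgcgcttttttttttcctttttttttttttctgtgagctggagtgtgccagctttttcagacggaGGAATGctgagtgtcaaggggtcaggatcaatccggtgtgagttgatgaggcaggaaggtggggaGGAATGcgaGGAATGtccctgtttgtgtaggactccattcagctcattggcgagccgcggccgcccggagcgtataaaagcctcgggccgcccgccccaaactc
ANKRD1 chr10:90921088-90921337, minus strand: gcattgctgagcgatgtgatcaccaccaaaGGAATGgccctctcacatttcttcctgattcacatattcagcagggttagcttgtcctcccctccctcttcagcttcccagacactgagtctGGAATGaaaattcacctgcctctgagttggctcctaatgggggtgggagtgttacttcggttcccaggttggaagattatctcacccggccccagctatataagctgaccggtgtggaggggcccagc
A match of letters describes the sequence and is not evidence of binding in these cells, in which no binding was measured.

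CYR61 (GRCh37, chr1:86046444-86050272, plus strand) had the lowest log2 fold change of the 10 genes. It was at 8.27, 7.81, 14.8 and 8.08 CPM in the DMSO libraries and at 6.97, 7.54, 8.15 and 7.66 CPM in the lenalidomide libraries. Lenalidomide replicates 1, 2 and 4 were below every DMSO library, but lenalidomide replicate 3 was above DMSO replicates 2 and 4, and the DMSO mean was raised by replicate 3. The means were 9.74 ± 3.38 and 7.58 ± 0.483 CPM (SD, n = 4 each, exact permutation p = 0.0857). The log2 fold change was -0.36 (SE 0.175), with an interval of -0.73 to 0.018, or a fold of 0.602 to 1.01. Without DMSO replicate 3 it was -0.090. CYR61 was counted on 215 to 507 reads a library.

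CTGF (chr6:132269316-132272512, minus strand) was near the lower end of the genes tested. It was at 0.856, 0.910, 1.43 and 1.35 CPM in DMSO and 0.713, 0.965, 1.28 and 1.248 CPM with lenalidomide, which amounts to 22 to 51 reads a library. In both groups replicates 3 and 4 were higher than replicates 1 and 2. The log2 fold change was -0.11 (SE 0.238), with an interval of -0.62 to 0.40, and 0.011 without DMSO replicate 3. At this depth a change within these bounds cannot be told from none. The GENCODE exons of CTGF share 278 bases with LINC01013 on the opposite strand. Where the counted exons hold these bases, reads from LINC01013 cannot be told apart from those of CTGF. ANKRD1 (chr10:92671853-92680844, minus strand) had only 99 reads over all libraries, 7 to 17 in each, with 0.348, 0.469, 0.467 and 0.238 CPM in DMSO and 0.421, 0.211, 0.426 and 0.347 CPM with lenalidomide. Its coefficient of variation of 27.1% over the 8 libraries was below the 28.4% that counting error alone gives. Its log2 fold change was -0.11, with an interval of -0.82 to 0.60, and -0.0037 without DMSO replicate 3.

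**Figure D1:**
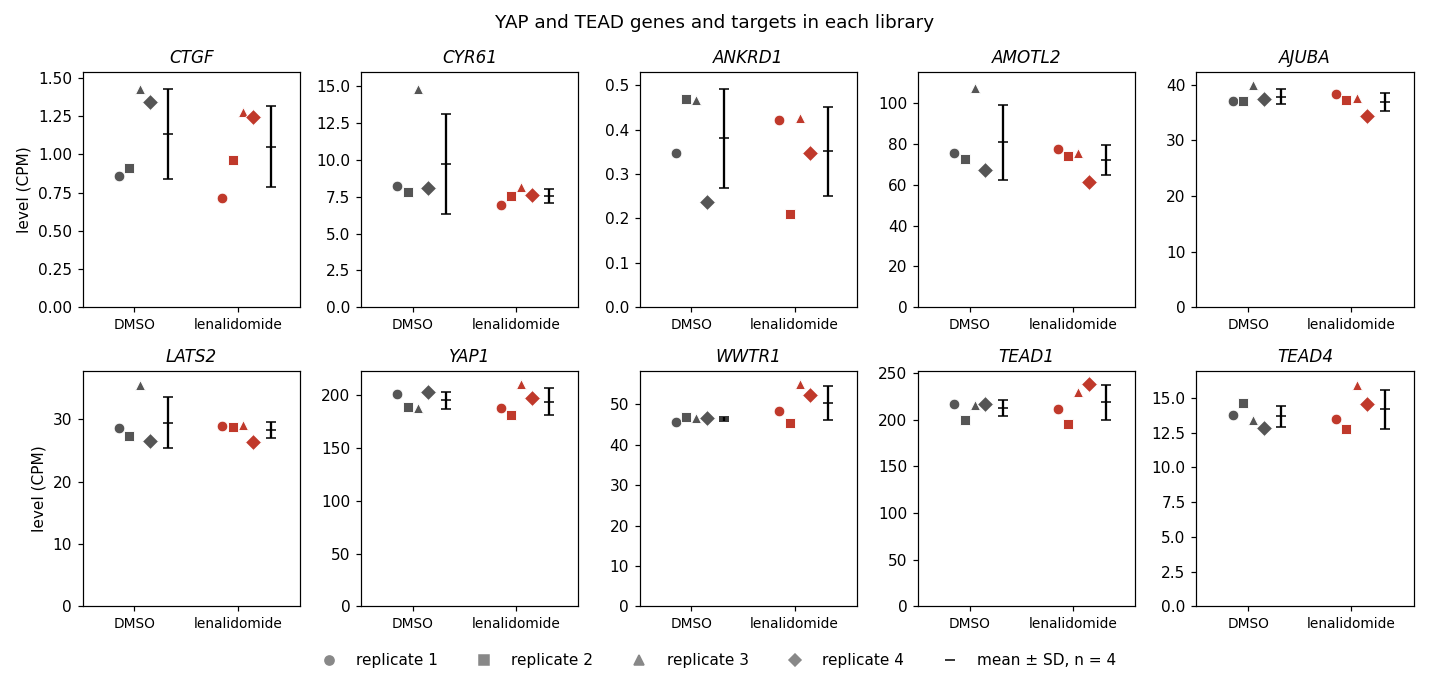
TMM-scaled CPM of each of the 10 genes in the 8 libraries, 1 panel a gene, with 1 point a library and bars for the mean and SD of 4 libraries. The groups overlap in all 10 panels, and DMSO replicate 3 is the highest point for CTGF, CYR61, AMOTL2, AJUBA and LATS2.

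AMOTL2, LATS2 and AJUBA are targets that also act within the pathway. AMOTL2, an angiomotin, binds YAP at junctions and keeps it from the nucleus, LATS2 is the kinase that phosphorylates YAP and TAZ, and AJUBA is a LIM-domain protein that binds and restrains the LATS kinases. Each had 1 promoter with a GGAATG core, on the opposite strand 69 bases upstream in AMOTL2 (read there as CATTCC), at +10 in LATS2 and at -59 in AJUBA. The 30 bases around these cores are shown, with the core in capitals, and the core of YAP1, at -162, is given beside them. At least 1 such core stands in 14.03% of all promoters. The transcripts of AMOTL2 and LATS2 moved together across libraries, and any part of these cores in that was not tested.
AMOTL2 start 2 chr3:134374499-134374528, minus strand: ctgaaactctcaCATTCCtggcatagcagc
LATS2 chr13:21061560-21061589, minus strand: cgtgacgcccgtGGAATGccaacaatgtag
AJUBA start 2 chr14:22976884-22976913, minus strand: gggaagttggctGGAATGaagccaaagcaa
YAP1 chr11:102110273-102110302, plus strand: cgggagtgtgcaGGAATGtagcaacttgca
A loose form of the AP-1 site, TGANTCA (N standing for any base, either strand), was found in ANKRD1 only, at -195, against 7.71% of all promoters. Its middle base there is T, and a stricter form was not searched. The CArG box, the site of serum response factor, was found in none of the 10 promoters, against 1.29%. These searches were exact and covered these windows alone.

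**Figure D2:**
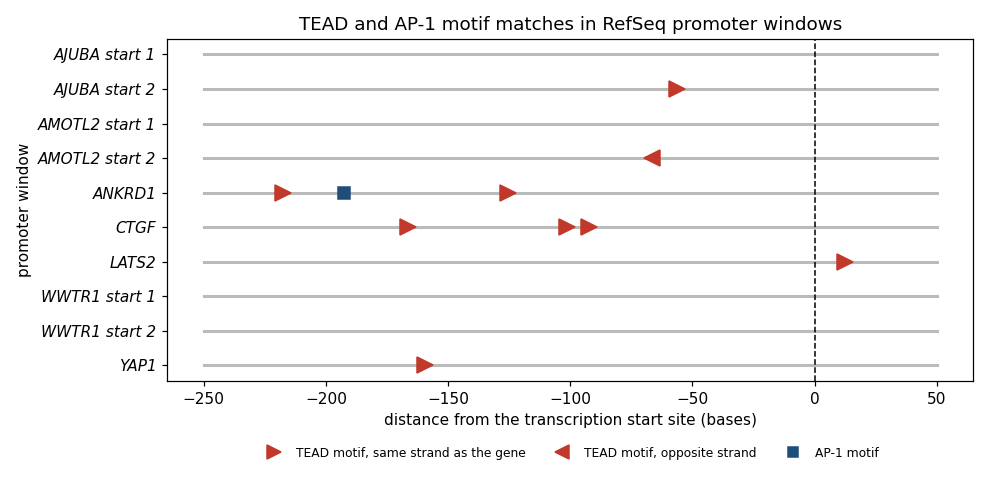
Positions of GGAATG and TGANTCA matches in the promoters found for 7 of the genes, as the distance in bases from the transcription start. CTGF has 3 and ANKRD1 2 GGAATG matches, YAP1, LATS2, 1 promoter of AMOTL2 and 1 of AJUBA have 1 each, and the promoters of WWTR1 have none.

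AMOTL2 (GRCh37, chr3:134074189-134094321, minus strand) was at 75.6, 72.6, 107.7 and 67.4 CPM in DMSO and at 77.5, 74.2, 75.5 and 61.4 CPM with lenalidomide. DMSO replicate 3 was far above the other 7 libraries, and lenalidomide replicate 4 was the lowest. The log2 fold change was -0.16 (SE 0.122) and became 0.0024 without DMSO replicate 3. LATS2 (chr13:21547175-21635725, minus strand) had the same extremes at a lower level, with 28.5, 27.4, 35.4 and 26.5 CPM in DMSO and 28.9, 28.8, 29.0 and 26.4 CPM with lenalidomide. Its log2 fold change was -0.058 (SE 0.0836), and 0.039 without DMSO replicate 3. AJUBA (chr14:23440386-23451760, minus strand) varied least of the 10 genes, with 37.1, 37.1, 40.0 and 37.4 CPM in DMSO and 38.3, 37.2, 37.6 and 34.5 CPM with lenalidomide. Its log2 fold change was -0.038 (SE 0.0555), with an interval of -0.16 to 0.081, and -0.015 without DMSO replicate 3. GENCODE exons of AMOTL2 share 187 bases with the pseudogene RPL39P5 and those of AJUBA 50 bases with a neighbouring gene, both on the same strand.

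Levels per transcript length spanned a wide range within the set. In DMSO the order was YAP1 (34.2 ± 1.39 RPKM), TEAD1 (19.9 ± 0.782), AMOTL2 (14.4 ± 3.24), WWTR1 (8.54 ± 0.106), AJUBA (7.99 ± 0.302), TEAD4 (6.32 ± 0.356), LATS2 (5.16 ± 0.710), CYR61 (4.25 ± 1.48), CTGF (0.485 ± 0.126) and ANKRD1 (0.193 ± 0.0562; SD, n = 4 throughout). Of neighbours in that order, TEAD1 and AMOTL2, WWTR1 and AJUBA, TEAD4 and LATS2, and LATS2 and CYR61 overlapped between libraries. With lenalidomide only AJUBA and TEAD4 overlapped. YAP1 was above 85.2%, TEAD1 above 75.6% and WWTR1 above 57.0% of the genes tested. Of the classical readouts CYR61 was above 41.6%, CTGF above 12.3% and ANKRD1 above 5.41%.

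**Figure D3:**
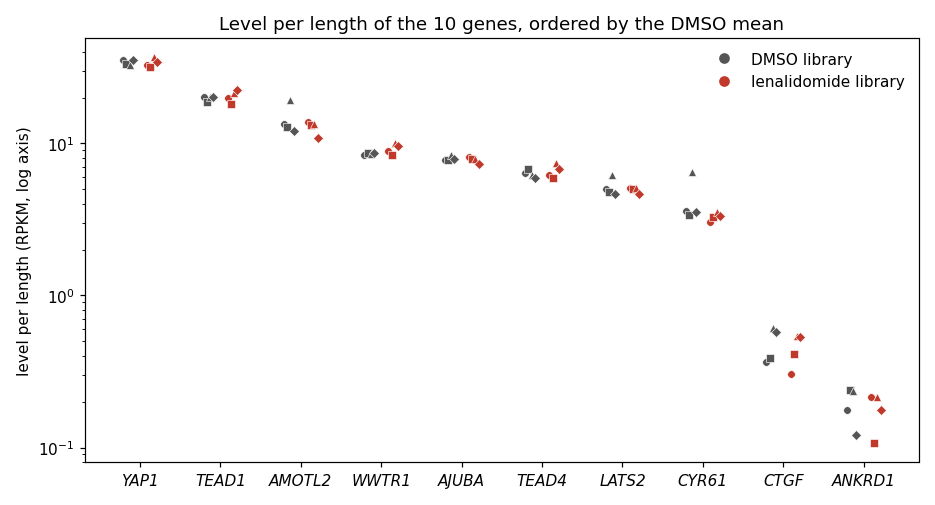
Levels of the 10 genes in RPKM on a log axis, 1 point a library, in the order of their DMSO means. YAP1 is highest at 34.2 RPKM and CTGF and ANKRD1 are lowest at 0.485 and 0.193 RPKM in DMSO.

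The genes also differed in how far they varied between libraries. Over the 8 libraries the coefficient of variation was 29.1% for CYR61, where counting error gives 5.82%, and 17.9% for AMOTL2, where it gives 1.96%. The AMOTL2 value was above that of 98.2% of the 9093 genes averaging 10 CPM or more, whose median was 6.27%. LATS2 at 9.86% was above 85.9% of these genes, and TEAD4 (7.78%), WWTR1 (7.18%), TEAD1 (6.51%), YAP1 (5.12%) and AJUBA (4.11%) were above 70.1%, 62.7%, 53.5%, 31.0% and 15.4%. Without DMSO replicate 3, a setting added after that library was seen to stand apart, the coefficient was 5.72% for CYR61, 7.90% for AMOTL2 and 4.06% for LATS2, beside a median of 5.78% over the same genes. AMOTL2 was then above 77.4% and LATS2 above 19.8% of these genes.

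DMSO replicate 3 stood apart for some of the targets. It was the highest of 8 for 5 of the 6 targets (all but ANKRD1) and for 0 of the 4 coactivator and TEAD genes, beside 17.3% of all genes tested. Lenalidomide replicate 4 was the highest for more genes still, 20.4%, and for 1 of the 10, TEAD1. The level in DMSO replicate 3 over the mean of the other 3 DMSO libraries was 1.84 for CYR61, 1.498 for AMOTL2, 1.38 for CTGF, 1.33 for ANKRD1, 1.29 for LATS2 and 1.08 for AJUBA. YAP1, WWTR1, TEAD1 and TEAD4 stood between 0.9501 and 1.02, with a median of 0.993 over all genes tested. The ratios of CTGF and ANKRD1 rest on 22 to 51 and 7 to 17 reads a library. CTGF was at 1.43 CPM in DMSO replicate 3 and 1.35 CPM in DMSO replicate 4. ANKRD1 was at 0.467 CPM in DMSO replicate 3 and 0.469 CPM in DMSO replicate 2. Over all genes tested, CYR61 or a gene with at least its ratio made up 0.172% (24 genes). Among the 9093 genes with at least 10 CPM, a group that CYR61 itself falls short of, 161 reached the ratio of LATS2. Immediate early genes, which serum and stress induce within minutes, were also high there, with 7 of 12 at their highest and a median ratio of 1.15. Of the SRF and cytoskeleton genes 6 of 12 were highest there (median ratio 1.10), of the other YAP targets 5 of 15 (1.12) and of the colon epithelial markers 2 of 6 (1.08). For the other Hippo genes, 5 of 21 with a median ratio of 1.02, the values were near those of all genes. These counts were made after the library was seen to stand apart, and what sets it apart was not tested.

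**Figure D4:**
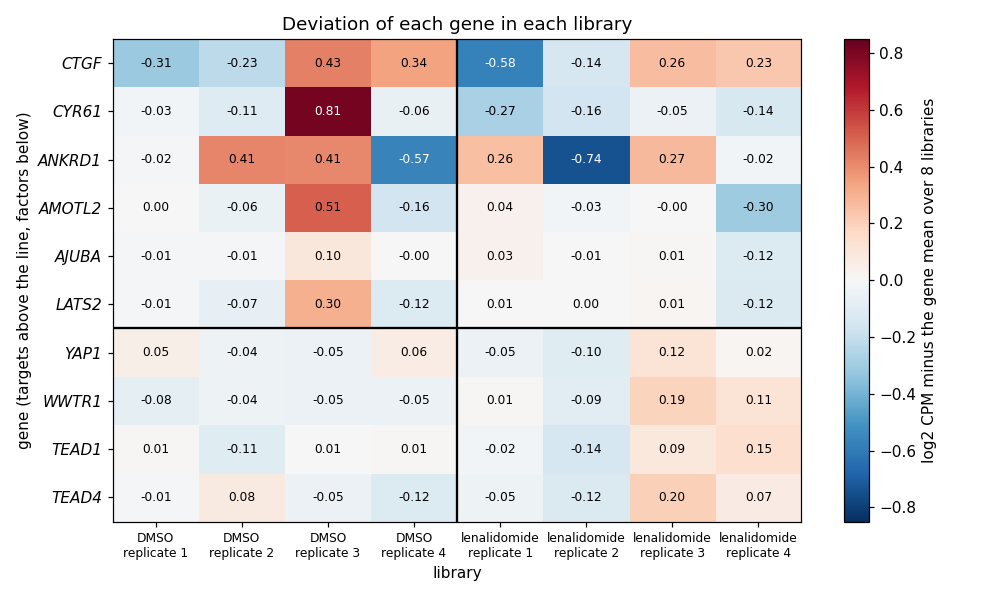
Deviation of each of the 10 genes from its mean over 8 libraries, in log2 CPM, with genes in rows and libraries in columns. The column of DMSO replicate 3 is above the mean for all 6 targets, most for CYR61, and near it for YAP1, WWTR1, TEAD1 and TEAD4.

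Of the 45 pairs among the 10 genes, AMOTL2 and LATS2 were most alike over the 8 libraries. Pearson's r of their log2 CPM was 0.979 (permutation p over 40320 pairings 0.000298, adjusted over 45 pairs 0.0134), and Spearman's rho was 0.881 (permutation p = 0.00724, adjusted 0.326). Without the 2 libraries farthest from the AMOTL2 median, DMSO replicate 3 and lenalidomide replicate 4, r was 0.924. Within DMSO r was 0.998 and within lenalidomide 0.985, over 4 libraries each, which is too few for a test. After removal of the group means LATS2 ranked 4 of 9092 genes by likeness to AMOTL2 (r = 0.987), a rank looked up after the pair was seen, and AJUBA ranked 290. No other pair passed the threshold by Pearson's r, and 0 of 45 passed by Spearman's rho. AMOTL2 and AJUBA had r = 0.897 (permutation p = 0.0165, adjusted 0.247) and rho = 0.762 (permutation p = 0.0368, adjusted 0.412). AJUBA and LATS2 had r = 0.815 (permutation p = 0.0378, adjusted 0.343) and rho = 0.833 (permutation p = 0.0154, adjusted 0.346). Without DMSO replicate 3 these r were 0.870 and 0.662. Without that library and lenalidomide replicate 4 they were 0.433 and 0.385.

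YAP1 and TEAD1 had r = 0.718 (permutation p = 0.0458, adjusted 0.343) and rho = 0.786 (permutation p = 0.0279, adjusted 0.412), falling to r = 0.440 without the 2 libraries farthest out. WWTR1 and TEAD4 had r = 0.812 (permutation p = 0.0131, adjusted 0.247) and rho = 0.738 (permutation p = 0.0458, adjusted 0.412). Their r fell to 0.220 without lenalidomide replicates 3 and 4, the 2 libraries farthest from the WWTR1 median. Leaving out the farthest libraries also narrows the range, so such a fall does not show what a relation rests on. CYR61 and AMOTL2 had r = 0.844 (permutation p = 0.0728, adjusted 0.437) but rho = 0.333 (permutation p = 0.428, adjusted 0.831), and r was -0.13 without DMSO replicate 3. CYR61 and LATS2 likewise went from r = 0.870 to -0.18 without that library (permutation p = 0.0777, adjusted 0.437, with all 8 libraries; rho = 0.310, permutation p = 0.462, adjusted 0.831). CYR61 and CTGF had r = 0.578 with it and 0.567 without it (permutation p = 0.10, adjusted 0.450, with all 8 libraries; rho = 0.548, permutation p = 0.171, adjusted 0.831). AMOTL2 and LATS2 had r = 0.902 without it.

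The genes most like CYR61 after removal of the group means, among the 9093 with at least 10 CPM, were JUN (r = 0.989), KEAP1 (0.986), PHF5A (0.984), P4HA2 (0.981) and PSMD2 (0.980). JUN, an AP-1 subunit, was at 13.99, 13.5, 22.5 and 13.96 CPM in DMSO and 10.6, 10.97, 12.8 and 11.5 CPM with lenalidomide, with DMSO replicate 3 again the highest. Without that library r was 0.919 for JUN, 0.939 for PSMD2 and 0.517 for P4HA2. LATS2 ranked 100 and AMOTL2 342 by this measure. For CTGF the nearest were PPP2R2A (0.973), MRPL38 (0.969), HPRT1 (0.966), VAPB (0.964) and WARS (0.963), over counts too low for more than a description.

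A further 17 genes known as YAP targets in other cells were listed, of which 15 were tested, FOXF2 and RBMS3 having only 2 and 56 counts. None passed the adjusted threshold of edgeR, and at an unadjusted p under 0.05 there were 3 higher and 1 lower of 15, against 4.18% of all genes tested, with a median log2 fold change of 0.0028 over the list and 0.049 without DMSO replicate 3. With DESeq2 in place of edgeR, without DMSO replicate 4 or without lenalidomide replicate 4, 2 of the list were under that p. With the replicate number as a block or without DMSO replicate 3 there were 5. All 4 libraries of 1 group lay apart from those of the other in 3 genes, 1 lower and 2 higher with lenalidomide, against 0.84% and 1.24% of all genes. FJX1, a secreted regulator of planar polarity, was at 10.2, 10.3, 9.78 and 10.1 CPM in DMSO and 8.33, 8.65, 8.81 and 7.0 CPM with lenalidomide. The groups did not overlap (log2 fold change -0.30, unadjusted p = 0.00354 by edgeR). TGFB2, a ligand of the TGF-beta family, was at 1.20, 1.16, 0.905 and 1.003 CPM in DMSO and 1.23, 1.36, 1.49 and 1.66 CPM with lenalidomide, without overlap (log2 fold change 0.42). ASAP1, an ARF GTPase-activating protein, was at 69.7 to 74.8 CPM in DMSO and 76.3 to 80.6 CPM with lenalidomide, also without overlap (log2 fold change 0.13). PTPN14, a phosphatase that binds YAP, is named after its values were seen and had a log2 fold change of 0.30 with overlapping groups. Most abundant per length were MYOF and NT5E, at 60.6 and 28.2 RPKM in DMSO.

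Of 22 other Hippo pathway genes 21 were tested, VGLL1 having 4 counts in all. None passed the adjusted threshold of edgeR, 12 were positive and 9 negative, and the median log2 fold change was 0.0072. TAOK3, MOB1B and LIMD1 had the smallest unadjusted p, with log2 fold changes of 0.14, 0.21 and 0.14, and only that of TAOK3 was under 0.05 before adjustment. TAOK3 is an upstream kinase, MOB1B a cofactor of LATS and LIMD1 a relative of AJUBA. MOB1A and MAP4K4 were the most abundant per length, at 50.8 and 30.4 RPKM in DMSO. None of the 12 tested SRF and cytoskeleton genes (13 listed, CNN1 with 7 counts) passed either threshold, with a median of -0.0043. ACTG1 and ACTB were the most abundant of these, and TPM1, ACTB and MYL9 had the smallest p, with log2 fold changes of -0.070, 0.076 and -0.051.

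**Figure D5:**
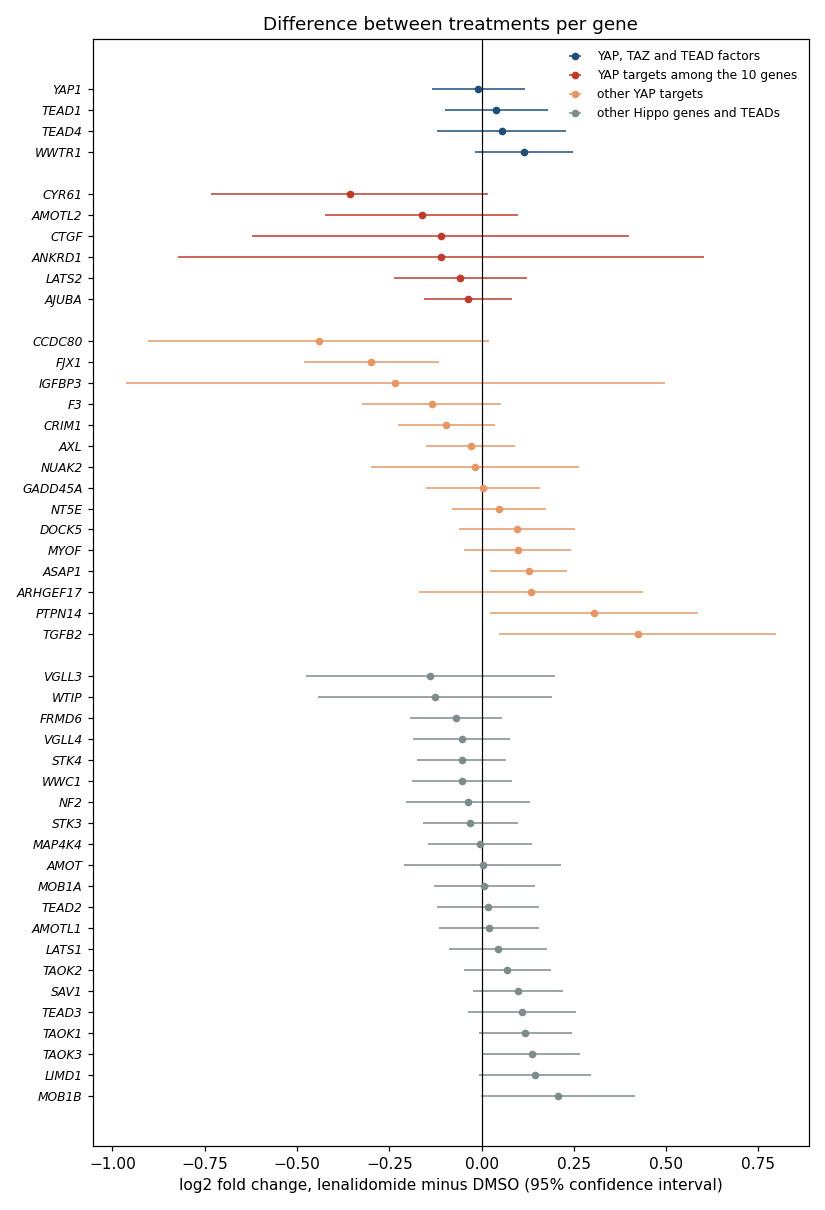
Log2 fold changes of the 10 genes, 15 other YAP targets and 21 other Hippo genes, lenalidomide minus DMSO, as points with lines for the 95% confidence intervals from edgeR over 4 libraries a group. All 10 intervals of the YAP, TEAD and target genes include 0; among the others FJX1 lies wholly below 0 and ASAP1, PTPN14, TGFB2 and TAOK3 wholly above it, before adjustment.

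The 12 immediate early genes stood beside CYR61, which is itself induced early by serum. None passed the adjusted threshold of edgeR, and at an unadjusted p under 0.05 there were 9 of 12 lower, against 0.919% of all genes tested. All 12 log2 fold changes were negative, against 48.7% of all genes tested, with a median of -0.39 that became -0.24 without DMSO replicate 3. In 3 of 12 (JUN, IER2 and IER3) every lenalidomide library lay below every DMSO library, beside 0.84% of all genes tested. FOS, FOSB and IER2 had the smallest p, with log2 fold changes of -1.40, -0.97 and -0.26. FOS and FOSB overlapped between the groups and were highest in DMSO replicate 4, at 48.2 and 17.2 CPM. Without that library the median of the list was -0.32, and 7 of 12 were under the unadjusted threshold. That count was 6 without lenalidomide replicate 1 or without lenalidomide replicate 2. The summed level of the list was 421 to 508 CPM in DMSO and 355 to 387 CPM with lenalidomide, without overlap. Most of that sum was IER3, at 243 to 297 CPM in DMSO and 214 to 237 CPM with lenalidomide. The separation of the sum is therefore not one of the list as a whole. By the deposited exonic lengths, IER3 and IER2 were the most abundant per length, at 35.9 and 22.4 RPKM in DMSO. The length behind the IER3 value was not checked against its transcript, so its level per length may be misstated. The part of these genes in the values of CYR61 was not tested.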

How the data were processed

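Per the labels, total RNA of 8 Hct116 cultures was made into ScriptSeq v2 libraries, and per the study's methods these were read on an Illumina HiSeq sequencer. The submitters' processing notes name bcl2fastq 2.17. The authors aligned reads to hg19 with QuasR at default settings and deposited raw counts per gene of the UCSC knownGene models; no strand setting is named. Rows without a symbol (70, holding 0.0223% of counts) were kept.

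Genes were filtered with filterByExpr (minimum count 10, minimum total 15), scaled by TMM and tested with edgeR 4.0.16 in R 4.3.3 by the quasi-likelihood test, 4 lenalidomide against 4 DMSO libraries, with Benjamini-Hochberg adjustment over 13925 genes. The common dispersion was 0.00573. Single values were tested by two-sided exact permutation. Alternatives were DESeq2 1.42.0, RLE scaling, other filters, a replicate block and each library left out. The procedure was tested on simulated data.

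Replicates of a group differed beyond counting noise (chi-square per degree of freedom 5.55 to 24.1 over 12 pairs), so all were kept. The design text calls them biological without naming separate cultures or days, so p-values measure only the spread between these libraries, which may be technical. The study's methods used swapped isotope labels in some replicates, and which RNA libraries these are is not given in the sources used here.

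The members and lists were chosen with earlier results of these data known. Named are the members, in each list the 3 genes of smallest p, the 2 most abundant per length and those under the filter, and the 5 genes most like CYR61 and CTGF. Gene positions are from GENCODE on GRCh37, promoters from RefSeq on GRCh38.p14. Levels per length used the exonic bases given in the deposited table.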

Additional observations from a re-analysis of the deposited data

Results flagged for a closer look

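In 20 groups of 4 libraries (10 genes, 2 treatments) a library far from the other 3 by Dixon's criterion was found in 4, where chance gives about 1 in 20 independent groups. The 10 genes share the same 8 libraries and some vary together, so these groups are not independent. CYR61 in DMSO replicate 3 was at 14.8 CPM, with the other 3 DMSO libraries at 7.81 to 8.27 CPM. AJUBA in the same library was at 40.0 CPM, with the others at 37.1 to 37.4 CPM. LATS2 in lenalidomide replicate 4 was at 26.4 CPM, below the others at 28.8 to 29.0 CPM. TEAD1 in DMSO replicate 2 was at 199.9 CPM, below the others at 216 to 217 CPM.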

How the results depend on the processing

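The count of YAP and TEAD genes past the adjusted threshold was 0 under all 13 alternatives, as were those of other Hippo genes, other YAP targets and SRF and cytoskeleton genes. Of 129 values of the 10 genes under the alternatives, 117 kept their sign and 12 changed it, all on leaving out 1 library. The log2 fold changes then ranged from -0.23 to 0.034 for CTGF, -0.29 to 0.078 for ANKRD1, -0.24 to 0.0024 for AMOTL2, -0.10 to 0.039 for LATS2, -0.052 to 0.022 for YAP1, -0.0030 to 0.091 for TEAD1 and -0.0079 to 0.10 for TEAD4, and, with no change of sign, from -0.45 to -0.090 for CYR61 (highest without DMSO replicate 3), 0.067 to 0.16 for WWTR1 (lowest without lenalidomide replicate 3) and -0.057 to -0.0074 for AJUBA (highest without lenalidomide replicate 4). Unadjusted, CYR61 was under 0.05 in 6 alternatives (DESeq2, no filter beyond 1 count, the replicate block, and without DMSO replicate 1, 2 or 4; from 0.0142 to 0.0415) and WWTR1 in 1 (0.0166, without lenalidomide replicate 2). ANKRD1 has no value when at least 10 counts are required in every library. Over all genes 2 passed (edgeR), 9 with DESeq2, 4 with no filter beyond 1 count, and 1 to 2 with a library left out. Of the immediate early genes 0 passed, 1 with that looser filter and 0 with a library left out. The cause was not tested. Same-numbered libraries had correlated deviations only for replicate 4 (0.305, above every differently numbered pair at -0.337 to 0.176), the other 3 being at -0.0075 to 0.052, so the numbers were not taken to pair the libraries. With the replicate block 6 genes passed over all genes, among them 2 immediate early genes and 0 of the 10, and CYR61 had a log2 fold change of -0.32 and an adjusted p of 0.702 (edgeR). Depth limits CTGF and ANKRD1 most.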

Other observations

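The library DMSO replicate 3 held other transcripts well above the other DMSO libraries, listed here after their values were seen. Among the 9093 genes with at least 10 CPM, the highest ratios to the mean of the other 3 DMSO libraries were those of PA2G4P4, a pseudogene (1.97), EGR1, an immediate early transcription factor (1.76), LENG1 (1.73), HIRIP3 (1.65), ERICH1 (1.63) and JUN (1.62). TNFRSF12A, the receptor of the cytokine TWEAK, followed at 1.62, and PPP1R15A, a phosphatase subunit induced by stress, at 1.55. AMOTL2 was in place 18 of this order. TNFRSF12A was at 124 CPM in DMSO replicate 3 and at 65.1 to 104 CPM in the lenalidomide libraries.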
